A study of Homo sapiens with 2 samples.

Results

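SR proteins are splicing factors that carry an RNA recognition motif followed by a tail rich in alternating serine and arginine residues. They bind exonic sequences, recruit the spliceosome to nearby splice sites, and are activated and moved between compartments by phosphorylation of the tail. Their own transcripts are kept in check by ultraconserved "poison" exons, whose inclusion sends the mRNA to nonsense-mediated decay, and they work against hnRNP proteins at many exons. The 10 SR protein genes described here (SRSF1 to SRSF7, SRSF9, SRSF10 and SRSF11) were taken by gene symbol, and all 10 were found among the 25343 gene entries of both expression files.

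The cells were Huh7, an established human line from a well differentiated hepatocellular carcinoma. They were held for 6 days in 1 of 2 media, high glucose at 4.5 g/L or low glucose at 0.45 g/L, with 500000 cells seeded per well and serum in the base medium; cells were passaged when dense and live cells alone were carried on. Each medium is represented by 1 RNA library, so no test between media and no error of a value can be given, and every difference describes 2 libraries. Values are TPM, an abundance corrected for transcript length and scaled so that each library sums to 1000000. They give shares of the RNA pool, so RNA per cell cannot be read from them, nor can a level that differs in every cell be told apart from one that differs in some cells. The depth in reads is unknown. Defining hepatocyte and hepatoma transcripts were abundant in both libraries: AFP measured 20859 TPM under high and 16441 TPM under low glucose, and ALB at 8528 and 7997 TPM. Over the 10 hepatocyte markers none differed by 2-fold, a count near the background of 4.75% of all genes compared. Of these markers, 7 were lower in low glucose (70%), against 45.3% of all genes compared. Most of the markers were among the 688 most abundant genes compared (means from 225 to 18650 TPM), whose median log2 difference was -0.14. FGB (fibrinogen beta chain) was the highest of the 10 markers by difference (617 and 927 TPM). TTR (transthyretin) was the lowest (1351 and 682 TPM, log2 difference -0.99). Of 10 markers of immune, endothelial, stromal and red cells, 6 were below 1 TPM in both libraries and HBB was listed at 0 in both. The summed level of these markers came to 42.7 TPM under high and 70.2 TPM under low glucose, most of it CD68 (20.4 and 39.3 TPM) and COL1A2 (18.7 and 24.6 TPM). COL1A1, a collagen gene, stood at 1.06 and 4.03 TPM and PECAM1, an endothelial adhesion gene, at 1.35 and 1.25 TPM. Of the 4 markers with a mean of at least 1 TPM, COL1A1 was the 1 past 2-fold (log2 difference 1.29), at a low level.

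The promoters of the 3 SR genes with the widest differences between the media, chosen after their values were seen, are printed so that they can be set beside the values that follow. Each line gives the 250 bases upstream of the RefSeq start (GRCh38.p14, gene strand, 5′ to 3′), with capitals marking matches, on either strand, to 6 short motifs. The motifs were the CCAAT box, the TATA box, spelled TATAAA, and the GC box of Sp1-type factors, spelled GGGCGG. The others were the core site of ETS factors, spelled CCGGAAG, the palindromic E-box, spelled CACGTG, and the core of the amino acid response element bound by ATF4, spelled TTGCATCA. SRSF3 and SRSF9 were lower and SRSF6 was higher in low glucose.
SRSF3, chr6:36594112-36594361, plus strand: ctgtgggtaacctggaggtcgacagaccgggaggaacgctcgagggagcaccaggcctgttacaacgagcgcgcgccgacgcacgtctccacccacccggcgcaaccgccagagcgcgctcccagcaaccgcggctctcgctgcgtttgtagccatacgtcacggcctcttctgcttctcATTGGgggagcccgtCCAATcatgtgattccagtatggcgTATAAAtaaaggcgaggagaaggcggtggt
SRSF9, chr12:120469749-120469998, minus strand: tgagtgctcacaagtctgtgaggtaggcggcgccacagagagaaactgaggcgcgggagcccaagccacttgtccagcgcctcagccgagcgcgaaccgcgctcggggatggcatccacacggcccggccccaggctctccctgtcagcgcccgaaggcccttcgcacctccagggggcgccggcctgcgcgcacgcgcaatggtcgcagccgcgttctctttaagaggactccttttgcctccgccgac
SRSF6, chr20:43457646-43457895, plus strand: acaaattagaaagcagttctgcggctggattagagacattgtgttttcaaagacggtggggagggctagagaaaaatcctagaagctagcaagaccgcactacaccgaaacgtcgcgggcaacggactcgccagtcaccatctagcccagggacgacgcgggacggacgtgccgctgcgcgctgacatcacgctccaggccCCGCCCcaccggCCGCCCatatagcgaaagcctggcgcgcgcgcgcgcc
The SRSF3 window held 2 CCAAT boxes, starting 70 and 55 bases before the start site, and a TATA box starting 30 bases before it. The SRSF6 window held 2 GC boxes, starting 49 and 37 bases before the start site, and the SRSF9 window held no match to the 6 motifs. RefSeq windows were found for 9 of the 10 genes (11 windows, SRSF2 being unmatched). Among these 9 genes a CCAAT box was found in 1 (SRSF3), a GC box in 3, a TATA box in 3 and an ETS core in 2. An E-box or an amino acid response element core was found in 0. The TATA match of SRSF11 lay on the opposite strand, starting 206 bases before the start site of 1 of its windows. Counted by window, the CCAAT box was in 1 of 11, the GC box in 4, the TATA box in 3, the ETS core in 2 and the others in 0. Over all 35116 RefSeq windows of the same length the shares holding each motif were 32.0% for CCAAT, 42.6% for the GC box, 10.7% for TATAAA, 8.52% for the ETS core, 6.34% for the E-box and 0.772% for the response element core. All 11 SR windows were at or above 52% G plus C and held 13 to 36 CpG dinucleotides, against a median of 58% and 11 over all windows. These matches are descriptions of letters and not of binding.

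The SR protein genes stood at similar levels in both media. None of the 10 differed by 2-fold on the scale used for every difference here, log2(TPM + 1) in low minus high glucose. Of all 13745 genes compared (mean of at least 1 TPM), 4.75% did: 3.65% were at least 2-fold higher and 1.10% at least 2-fold lower. In the level range of the SR genes (1813 genes with a mean between those of the least and the most abundant SR gene) the share was 5.24%. At 1.5-fold the SR count was also 0 of 10, against 19.1% of all genes and 19.7% in the level range. The SR differences ran from -0.54 to 0.52, with a median of -0.06 beside 0.05 for all genes and -0.14 in the level range. Of the 10, 6 lay below 0, against 45.3% of all genes and 63.0% in the level range. The typical size of the difference, sign aside, was 0.18 for the SR genes and 0.29 for all genes (medians). These shares lie near or below the background and single out nothing about the family as a whole.

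**Figure D1:**
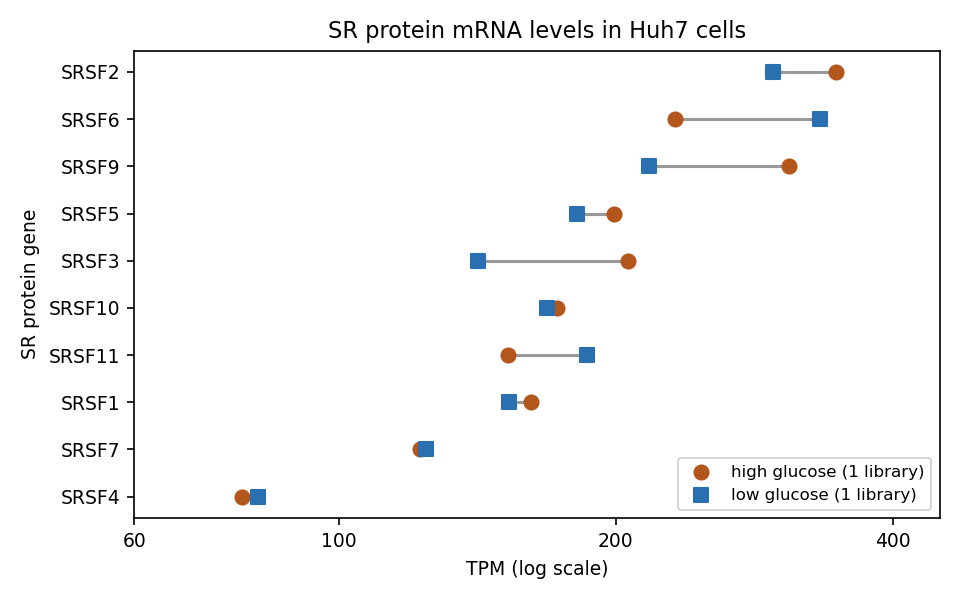
TPM (log axis) of the 10 SR protein genes in the high glucose library (circles) and the low glucose library (squares), 1 library each, ordered by mean level. The low glucose square lies left of the circle for SRSF3 and SRSF9 and right of it for SRSF6 and SRSF11, and the symbols nearly coincide for SRSF1, SRSF4, SRSF7 and SRSF10.

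Within that narrow range the members went both ways. SRSF3 and SRSF9 were lower in low glucose by 31.2% and 29.5%, and SRSF2 by 14.7%. SRSF6 and, by less, SRSF11 were higher. The other 5 differed by at most 8.78% of their high glucose level. The decreases summed to -237 TPM and the increases to 140 TPM, so the summed level came to 1982 TPM under high and 1885 TPM under low glucose, a ratio of 0.951. The 10 genes together made up 0.198% of all TPM in high and 0.188% in low glucose. Levels within the family spanned 4.42-fold in high glucose, from SRSF4 to SRSF2, and 4.08-fold in low glucose, from SRSF4 to SRSF6.

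SRSF3 encodes the smallest SR protein, an exonic splicing activator that also serves as an adaptor for mRNA export and is needed for normal hepatocyte differentiation in mice. The gene (hg19, chromosome 6, 36562090 to 36572244) measured 206 TPM under high and 142 TPM under low glucose, which is 31.2% lower and a log2 difference of -0.54. It was the lowest difference of the family, and 7.71% of all genes compared lay below it. Its rank by level within the family went from 4 to 8. SRSF7, its closest relative, which adds a zinc knuckle to the same layout and also links splicing to export, stood at 123 and 124 TPM (hg19, chromosome 2, 38970741 to 38978636). The level of SRSF3 was thus 1.68 times that of SRSF7 in high glucose and 1.14 times in low glucose.

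SRSF9, an SR protein with a short arginine-serine tail, showed a difference of similar size. The gene (hg19, chromosome 12, 120899471 to 120907558) measured 309 TPM under high and 218 TPM under low glucose, a log2 difference of -0.50, with 8.98% of genes compared below it. Its interval shares 2086 bases with that of GATC, a subunit gene of a mitochondrial amidotransferase, which stood at 24.9 and 18.1 TPM (-0.44). Whether the libraries keep strand is not given in the sources used here, so the part of GATC reads in the SRSF9 value was not tested. SRSF1, the close relative of SRSF9 and a proto-oncogenic splicing activator that favours proximal 5′ splice sites, was nearly level at 162 and 153 TPM (-0.08; hg19, chromosome 17, 56078280 to 56084707). SRSF1 and SRSF9 together stood at 470.3 and 371 TPM.

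SRSF6, an exonic enhancer binding SR protein, was the member with the highest difference. The gene (hg19, chromosome 20, 42086504 to 42092244) measured 232 TPM under high and 334 TPM under low glucose, which is 1.44 times as high and a log2 difference of 0.52. Of all genes compared, 84.4% lay below it, and 88.1% of the 688 genes of its own level group did. It was the third most abundant SR transcript in high glucose and the most abundant in low glucose, passing SRSF2. Its closest relatives had smaller differences: SRSF4 stood at 78.5 and 81.7 TPM (0.06; hg19, chromosome 1, 29474250 to 29508637) and SRSF5 at 199 and 182 TPM (-0.13; hg19, chromosome 14, 70233829 to 70238722). Summed, SRSF4, SRSF5 and SRSF6 stood at 510 and 597 TPM and were the only one of the 3 groups of close relatives with a higher sum in low glucose.

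SRSF11, a less typical member found in nuclear speckles, measured 153 TPM under high and 186 TPM under low glucose (0.28; hg19, chromosome 1, 70671365 to 70717701), a value 69.9% of genes compared lay below. SRSF10, which turns from activator to repressor of splicing when it is dephosphorylated under heat shock, stood at 173 and 168 TPM (-0.03; hg19, chromosome 1, 24292937 to 24306953). SRSF2, an exonic enhancer binding protein long used as a marker of nuclear speckles, stood at 347 and 296 TPM (-0.23; hg19, chromosome 17, 74730197 to 74733493). The SRSF2 interval shares 847 bases with MFSD11, a transporter-like gene at 14.3 and 15.2 TPM, and contains the microRNA entry MIR636, listed at 0 in both libraries. Near the start of SRSF5 the entry LOC100289511 shares 602 bases and stood at 0.18 and 0.22 TPM. The neighbouring entries were thus far less abundant than the SR genes they overlap.

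**Figure D2:**
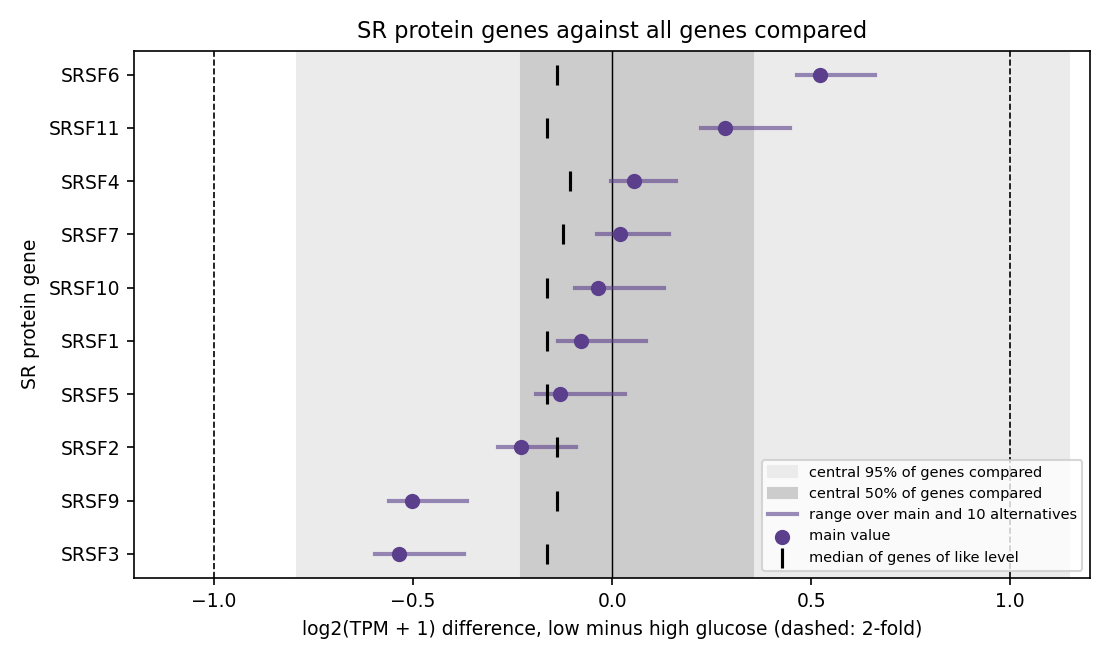
Change in log2(TPM + 1) from high to low glucose for each SR protein gene (dot) with its range over the main value and 10 alternative scalings, pseudocounts and filters (line) and the median of genes of like level (tick); bands hold the central 50% and 95% of the 13745 genes compared. SRSF3 and SRSF9 stay left of 0 and SRSF6 and SRSF11 right of it along their lines, and no line reaches the dashed 2-fold marks.

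SR genes are abundant, and abundant genes tended to lower values in low glucose, so each member was also read against genes of like level (20 groups of equal size by mean TPM). The median difference of these groups ran from -0.10 to -0.16 for the groups that hold SR genes. The top group, which holds SRSF2, SRSF6 and SRSF9, is wide, with means from 225 to 18650 TPM. Its genes are thus only loosely of like level to these 3. Of the 10 members, 7 lay above the median of their own level group, and 3 (SRSF2, SRSF3 and SRSF9) below. With that median subtracted, SRSF6 stood at 0.66, SRSF11 at 0.45, SRSF9 at -0.36 and SRSF3 at -0.37. The signs of SRSF1, SRSF5 and SRSF10 turned to positive, and those of SRSF4 and SRSF7 turned to negative under some scalings, so these 5 genes took both signs across the alternatives. SRSF2, SRSF3, SRSF6, SRSF9 and SRSF11 kept their sign under all 10 alternatives. Past 1.5-fold the picture depends on scaling, with SRSF3 at -0.59 under trimmed mean scaling and SRSF6 at 0.66 after the subtraction.

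The make-up of the SR transcript pool differed between the libraries, most of all in SRSF6. This gene supplied 11.7% of the summed SR TPM in high and 17.7% in low glucose. SRSF9 went from 15.6% to 11.5%, SRSF3 from 10.4% to 7.53% and SRSF2 from 17.5% to 15.7%, while SRSF11 went from 7.71% to 9.88%. SRSF6 exceeded SRSF3 by 1.12 times in high and 2.35 times in low glucose, and relative to SRSF9 its level went from 0.752 to 1.53 times. These ratios within a library do not depend on how the libraries are scaled to each other. The split did not follow protein layout: the 5 genes whose proteins have 2 RNA recognition modules (SRSF1, SRSF4, SRSF5, SRSF6 and SRSF9) summed to 979.9 and 968 TPM, and the 5 with 1 module to 1002 and 917 TPM. Each of these groups held both a member near -0.5 and a member above 0.

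**Figure D3:**
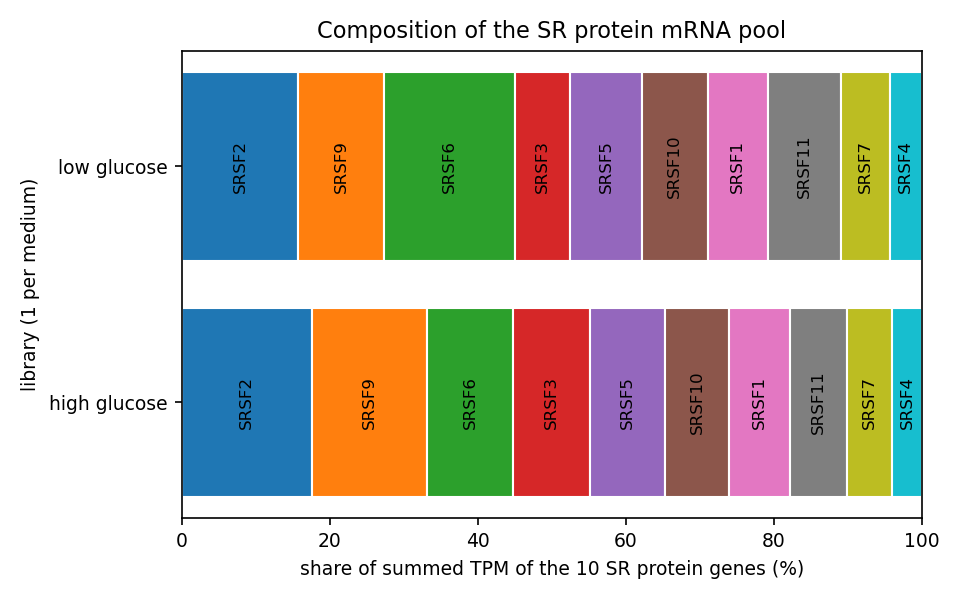
Share (%) of each gene in the summed TPM of the 10 SR protein genes, in the high glucose and the low glucose library. The SRSF6 segment widens from 11.7% to 17.7% and those of SRSF9 and SRSF3 narrow.

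A TPM value covers all transcripts of a gene, productive or not. GENCODE release 29 lists 107 transcripts for the 10 genes, of which 22 are annotated as targets of nonsense-mediated decay, with at least 1 for each of the 10, and 8 genes also have transcripts with a retained intron. The number of transcripts per gene ran from 2 for SRSF6 to 19 for SRSF5. Which of these changed between the media was not analysed here. Of 14 genes of nonsense-mediated decay and the exon junction complex, 0 differed by 2-fold, a count near the background of 4.75% of all genes. Of the same 14, 8 (57.1%) lay below 0, against 45.3% of all genes, also near the background. The median was -0.10, beside 0.05 for all genes. The core helicase gene UPF1 stood at 147.5 and 122 TPM (-0.28) and the decay factor gene SMG5 at 117 and 122 TPM (0.06). The list ran from RBM8A, a junction complex subunit, at 59.2 and 46.3 TPM (-0.35), to SMG1, the kinase of UPF1, at 28.3 and 37.2 TPM (0.39).

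Among the kinases of SR proteins, CLK1, CLK2 and CLK4 had differences beyond the SR gene range of -0.54 to 0.52, a contrast that was not tested. The other kinases compared lay inside that range. The CLK kinases phosphorylate SR proteins in the nucleus and release them from speckles. All 4 had higher values in low glucose, while 45.3% of all genes compared had lower ones. CLK1 measured 46.8 TPM under high and 111 TPM under low glucose, a log2 difference of 1.23 that stayed past 2-fold under all 10 alternatives (1.16 to 1.33). CLK2 stood at 50.5 and 78.3 TPM (0.62), CLK3 at 44.4 and 59.8 TPM (0.42) and CLK4 at 10.7 and 16.4 TPM (0.57). Of all genes compared, 88.5% lay below CLK2, 79.3% below CLK3 and 86.3% below CLK4. The CLK1 value, too, covers transcripts with retained introns, which this gene is known to keep in the nucleus, and amounts of kinase were not measured.

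In the cytoplasmic arm of the cycle, SRPK1 and TNPO3 had lower values, within the usual spread of genes of like level, and SRPK2 was level. SRPK1, which phosphorylates newly made SR proteins, stood at 76.3 and 60.7 TPM (-0.32), and TNPO3, the importin that then carries them into the nucleus, at 65.0 and 53.6 TPM (-0.27). SRPK1 had 18.1% of genes compared below it and TNPO3 had 21.5%. Both differences lay between the quartiles of their own level groups, whose lower quartiles were -0.33 and -0.32. SRPK2 was level at 42.3 and 42.2 TPM, and the muscle kinase gene SRPK3 had entries of 0 and 0.05 TPM and was too low to compare. PRPF4B, a spliceosomal kinase, stood at 39.1 and 47.6 TPM (0.28) and DYRK1A, another kinase of SR proteins, at 18.0 and 22.5 TPM (0.31). Of the 9 genes compared on this list, 6 lay above 0 and 3 (33.3%) below, against 45.3% of all genes below 0, a share near the background. CLK1 was the 1 gene past 2-fold (4.75% of all genes), and the median was 0.31 beside 0.05 for all genes.

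**Figure D4:**
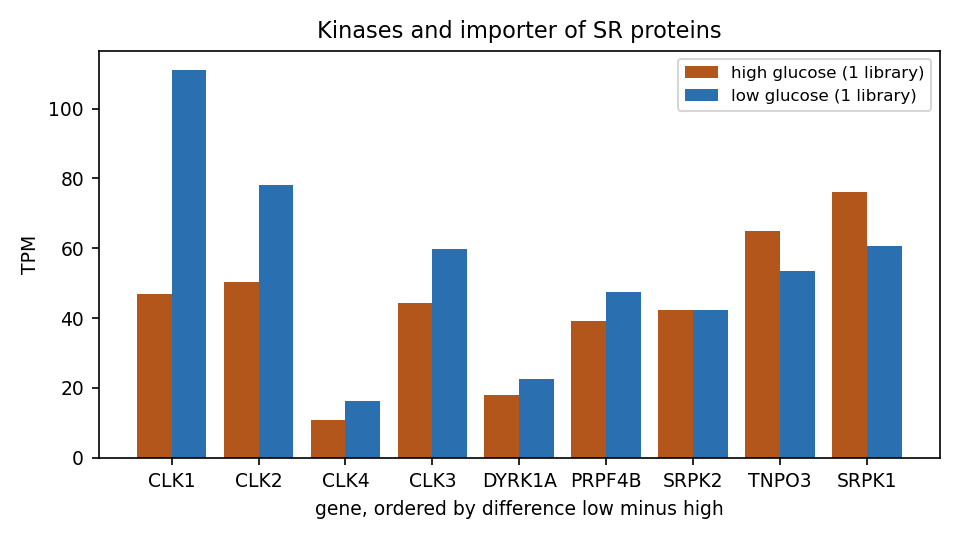
TPM of the 9 compared genes for SR protein kinases and the importer TNPO3 in the high and the low glucose library (1 each). The 4 CLK genes are higher in low glucose, CLK1 by most, while TNPO3 and SRPK1 are lower.

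Among the other splicing genes, most of those encoding hnRNP proteins had lower values in low glucose, by less than 2-fold in all but 1. Of 24 genes, 21 (87.5%) lay below 0, against 45.3% of all genes and 63.0% in the level range of the SR genes. The median was -0.43 (0.05 for all genes), or -0.30 with the level group medians subtracted, and their summed level came to 8553 TPM under high and 6569 TPM under low glucose. HNRNPA1, which often competes with SRSF1, stood at 1868 and 1372 TPM (-0.44), and HNRNPA2B1, its close relative, at 791 and 634 TPM (-0.32). HNRNPH2 was the lowest, at 18.1 and 7.76 TPM (-1.12). It was the 1 member of 24 past 2-fold, a count near the background of 4.75% of all genes. With a pseudocount of 5 it was at -0.86 and short of 2-fold. The 3 genes above 0, named after their values were seen, were PTBP2 (the neuronal polypyrimidine tract binding protein, 12.3 and 20.9 TPM, 0.72), HNRNPH1 (592 and 657 TPM, 0.15) and HNRNPDL (0.01). HNRNPH1 and HNRNPH2 are near-identical in sequence, and HNRNPA1 and several SR genes have processed pseudogenes, so how reads were divided between such copies adds uncertainty to their separate values. The sum of the SR genes relative to high glucose (0.951) stood above that of the hnRNP genes (0.768), a difference that was not tested.

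SR-related proteins carry a region rich in arginine and serine without being classical family members, and as a list their genes were centred near 0. Of 22 genes, 13 lay above 0 and 9 (40.9%) below, against 45.3% of all genes below 0, and none was past 2-fold (4.75% of all genes), so both counts lie near the background. The median of 0.04 turned to -0.01 under 2 scalings. RBM39, a coactivator related to the U2AF proteins, was the highest and the most abundant, at 256 and 457 TPM (0.83). SNRNP70, which encodes a protein of the U1 particle, stood at 353 and 322 TPM (-0.13). U2AF2, which binds the polypyrimidine tract at 3′ splice sites, was the lowest at 172 and 136 TPM (-0.33). The speckle scaffold gene SRRM2 (233 and 344 TPM, 0.56) and SREK1 (57.5 and 83.5 TPM, 0.53), both named after their values were seen, were also higher. Of all genes compared, 86.0% lay below SRRM2 and 84.7% below SREK1.

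Core spliceosome genes tended to lower values in low glucose, as abundant genes did, with a median somewhat further below 0. Of 36 genes, 25 (69.4%) lay below 0, against 45.3% of all genes and 63.0% in the level range of the SR genes, and none was past 2-fold (4.75% of all genes). The 2-fold count lies near the background. The share below 0 was above that of all genes and nearer that of the level range, though some genes of the list lie outside that range. Their median was -0.25, beside -0.14 in the level range, and stayed below 0 at -0.14 with the level group medians subtracted. The Sm protein genes SNRPB (1173 and 1200 TPM, 0.03) and SNRPD2 (458 and 369 TPM, -0.31) were the most abundant. SNRPD3, another Sm protein gene, was the lowest (82.5 and 49.5 TPM, -0.73), and PLRG1, a component of the activated spliceosome, the highest (44.6 and 50.4 TPM, 0.17). The remaining SRSF genes were scarce: SRSF8, an intron-poor relative of SRSF2, stood at 8.78 and 8.22 TPM (-0.09) and SRSF12, a relative of SRSF10, at 5.09 and 7.64 TPM (0.50). Together they held 13.9 and 15.9 TPM.

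**Figure D5:**
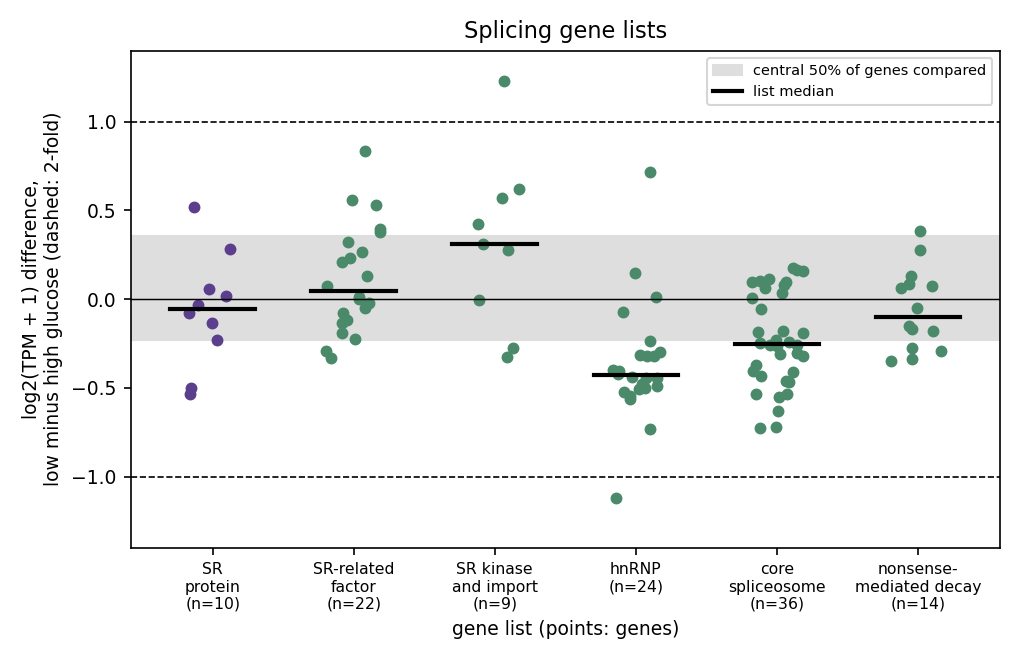
Change in log2(TPM + 1) from high to low glucose of every compared gene (points, spread sideways for legibility) in 6 lists of splicing genes, with list medians (bars) and the central 50% of all genes compared (band). SR protein genes are centred near 0 (-0.06), hnRNP genes mostly lie below the band (median -0.43), and CLK1 is the 1 point above the upper 2-fold mark.

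Growth-linked transcripts also differed between the 2 libraries. MYC, a transcription factor known to induce SRSF1, stood at 105 and 198 TPM (0.91). The proliferation marker MKI67 stood at 123 and 82.1 TPM (-0.58) and the replication clamp gene PCNA at 624 and 222 TPM (-1.49). Their part in the SR and hnRNP values was not tested.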

How the data were processed

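Huh7 cells in high and low glucose medium gave 1 RNA library each, grouped by the treatment label. The authors deposited TPM per gene with a symbol and an interval, named TPM per the file headers. The submitters' processing notes name cutadapt, RSEM 1.2.21 and hg19; for aligner, annotation, strand setting and filtering, nothing is given in the sources used here. RSEM divides reads that fit several genes among them. The depth is unknown, so no counting interval is given, and low TPM are less precise by an amount not determined.

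Genes with a mean of at least 1 TPM were compared by log2(TPM + 1), low minus high glucose. A gene was called past 2-fold when this value reached 1 or -1. No p-value can be had from single libraries. Some entries with several copies have intervals running over many megabases, so overlaps were sought among entries shorter than 3 Mb. All 10 SR genes passed the level filter. Every SR gene, the other SRSF genes and every kinase and import gene were named. For the other lists the names were the 2 most abundant genes, the highest, the lowest and those past 2-fold. The growth-linked genes and the entries overlapping an SR gene were also named. Named outside these rules were SRRM2, SREK1, HNRNPH1 and HNRNPDL, after their values were seen, and HBB, listed at 0. The members and lists were chosen with earlier results of these data known. Promoters came from RefSeq (GRCh38.p14) and transcript types from GENCODE release 29. The procedure was tested on simulated data. Alternatives were 4 other scalings, subtraction of the level group median, pseudocounts of 0.1 and 5, no filter, a minimum of 10 TPM, leaving out entries with identical intervals, and thresholds of 1.5-fold and 3-fold. Calculations used Python 3.11.15, pandas 2.3.3 and numpy 2.4.6.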

Additional observations from a re-analysis of the deposited data

How the results depend on the processing

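No paired analysis was possible because each medium has 1 library, and no replicate could be left out. The count of SR genes past 2-fold was 0 under every alternative. Subtracting the level group median had the widest effect: SRSF1 (0.086), SRSF5 (0.032), SRSF10 (0.13) and the SR median (0.11) turned positive, 3 instead of 6 SR genes lay below 0, and SRSF2 (-0.091), SRSF3 (-0.37), SRSF9 (-0.36), SRSF4 (0.16), SRSF7 (0.14), SRSF6 (0.66) and SRSF11 (0.45) moved by over 0.1. The medians of the SR-related (0.16), core spliceosome (-0.14) and hnRNP (-0.30) lists moved likewise. SRSF7 reversed under median-of-ratios (-0.035), trimmed mean (-0.038) and upper-quartile scaling (-3.8e-05), and SRSF4 under trimmed mean scaling (-0.0019). The SR-related median reversed under median-of-ratios (-0.0097) and trimmed mean scaling (-0.014). Each of these shifts follows from the scaling or subtraction itself. Under the 4 scalings the median over all genes lay from -0.0032 to 0.08. Over all genes, 502 were at least 2-fold higher and 151 lower; these became 234 and 79 with a pseudocount of 5, 1786 and 835 at 1.5-fold and 119 and 22 at 3-fold, and with a minimum mean of 10 TPM the higher count was 293. The remaining 195 values compared under an alternative kept their sign and moved by 0.1 or less, or, for counts, by 1.5 times or less. Alternatives for CLK1 and HNRNPH2 were added after seeing the data. With no depth or replicate, differences of the size seen here cannot be set against an error.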
